A study of Homo sapiens with 8 samples.

Results

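The transcripts described here are long noncoding RNAs, most of which either stay in the nucleus or carry small nucleolar RNAs (snoRNAs) in their introns. They were followed with and without a hairpin against XBP1 in 2 breast cancer cell lines. The genes listed were MALAT1, NEAT1, H19, GAS5, SNHG1, SNHG3, SNHG5, SNHG12, DANCR and ZFAS1, and every probe set annotated with 1 of these symbols alone was taken. That gave 18 probe sets out of 41091 with a single symbol on the array, which holds 54675 probe sets in all. They belong to 4 of the 10 genes: MALAT1 has 12, ZFAS1 has 4, and GAS5 and DANCR have 1 each. The other 21 of the 39 probe sets of these genes are annotated with several symbols, among them every one of the 9 for NEAT1 and 4 of the 5 for GAS5, so NEAT1, H19, SNHG1, SNHG3, SNHG5 and SNHG12 were not analysed here.

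The study asked what XBP1 contributes to gene expression in breast cancer cells under hypoxia and glucose deprivation. XBP1 is made active when IRE1, a stress sensor of the endoplasmic reticulum (ER), splices its mRNA, and then drives transcription of genes for protein folding and secretion. Total RNA came from the triple-negative, mesenchymal-like line MDA-MB-231 and from the luminal line T47D, which carries the oestrogen receptor, each infected with a lentivirus for the XBP1 hairpin (shXBP1) or a control hairpin (shCtrl) and kept in puromycin at 2 ug/ml. All 4 groups were kept for 24 h at 0.1% O2 in glucose-free medium with serum, at 2 arrays per group, so no group is unstressed, and the untreated conditions of the study were not analysed here. The labels call the replicates biological without saying whether they came from separate infections or dishes, and the p-values below therefore cover no more than the spread among these 8 samples.

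MALAT1 and NEAT1 are among the most abundant nuclear RNAs of human cells: MALAT1 gathers in nuclear speckles beside the splicing machinery, and NEAT1 is the scaffold of paraspeckles. GAS5, DANCR, ZFAS1 and the SNHG transcripts are spliced RNAs whose introns release snoRNAs, the guides of ribosomal RNA modification, and GAS5 is a known substrate of nonsense-mediated decay because its short reading frame ends early. ZFAS1 starts beside ZNFX1 and runs antisense to it, DANCR is known for holding back differentiation of progenitor cells, and MALAT1 has been widely studied in breast cancer metastasis.

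The start regions of the members are shown first because the hairpin targets a transcription factor and the transcripts moved differently. RefSeq (GRCh38.p14) places MALAT1 on chromosome 11, with 2 starts in the table used, DANCR on chromosome 4 and ZFAS1 on chromosome 20, all on the plus strand, and GAS5 on chromosome 1 on the minus strand. Each sequence covers 250 bases before the start and 50 after it, on the gene's own strand. Capitals mark matches, on either strand, to CCACG, the half-site of the ER stress element, to ACGTG, the core shared by hypoxia response elements and XBP1 sites, or to CCAAT; the first 2 can share letters. The windows are chr11:65497488-65497787 and chr11:65498795-65499094 for the MALAT1 starts, chr4:52712144-52712443 for DANCR and chr20:49278392-49278691 for ZFAS1.
MALAT1, start 1: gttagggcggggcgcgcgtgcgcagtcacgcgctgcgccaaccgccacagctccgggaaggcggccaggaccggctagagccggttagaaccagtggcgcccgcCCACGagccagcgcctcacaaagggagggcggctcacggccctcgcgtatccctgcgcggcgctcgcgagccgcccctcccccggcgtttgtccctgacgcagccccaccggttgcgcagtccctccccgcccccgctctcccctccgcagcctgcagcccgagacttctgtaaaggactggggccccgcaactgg
MALAT1, start 2: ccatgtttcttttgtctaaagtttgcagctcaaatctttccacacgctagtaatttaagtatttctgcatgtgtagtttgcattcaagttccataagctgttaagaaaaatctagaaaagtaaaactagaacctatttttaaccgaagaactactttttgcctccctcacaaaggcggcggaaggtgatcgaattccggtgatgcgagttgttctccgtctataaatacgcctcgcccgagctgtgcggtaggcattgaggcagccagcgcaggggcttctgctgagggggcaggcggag
DANCR: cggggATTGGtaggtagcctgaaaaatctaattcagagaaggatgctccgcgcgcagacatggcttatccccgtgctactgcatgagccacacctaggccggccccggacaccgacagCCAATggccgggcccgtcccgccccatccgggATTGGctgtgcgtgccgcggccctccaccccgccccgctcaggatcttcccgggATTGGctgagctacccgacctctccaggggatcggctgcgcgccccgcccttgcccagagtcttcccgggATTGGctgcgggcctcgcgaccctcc
ZFAS1: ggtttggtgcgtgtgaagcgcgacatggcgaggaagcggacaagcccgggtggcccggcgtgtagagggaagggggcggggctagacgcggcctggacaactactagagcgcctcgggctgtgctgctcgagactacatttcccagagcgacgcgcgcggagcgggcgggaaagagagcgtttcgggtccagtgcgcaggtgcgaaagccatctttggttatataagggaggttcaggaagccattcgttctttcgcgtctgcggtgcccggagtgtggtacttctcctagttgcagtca
The upstream MALAT1 window is rich in GC (73.7%) and holds 1 CCACG, 146 bases before the start, while the downstream window is 46.0% GC and holds none of the 3 motifs. DANCR (67.7% GC) holds 5 matches to CCAAT and neither of the other motifs. ZFAS1 (62.0% GC) holds none of them. The GAS5 window, chr1:173868996-173869295, is not printed, and it holds 3 matches to CCAAT. Over 35116 start regions of the same length, 38.1% hold CCACG, 21.4% hold ACGTG and 34.6% hold CCAAT, so a match of either kind is common, and none of them is evidence of binding.

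Levels below are deposited log2 values of single probe sets, and log2 fold changes are shXBP1 minus shCtrl, or MDA-MB-231 minus T47D, with the standard error (SE) and the Benjamini-Hochberg adjusted p from limma. A probe set is said to have risen or fallen where that adjusted p was under 0.05. The targeted gene was low with its hairpin. The main XBP1 probe set (200670_at) read 7.13 and 6.69 with shXBP1 against 10.83 and 10.69 with shCtrl in MDA-MB-231, a change of -3.85 (SE 0.18, adjusted p = 4.48e-05). In T47D it read 7.52 and 7.16 with shXBP1 against 12.41 and 12.56 with shCtrl, a change of -5.15 (adjusted p = 1.07e-05). The dim XBP1 probe set 242021_at lay between 5.51 and 6.37 on the 8 arrays and did not pass in either line. Array medians lay between 5.87 and 5.91 and replicate arrays correlated at 0.994 to 0.997. The line labels fitted their markers: all 11 measured luminal genes (XBP1 among them) were lower and 11 of 12 mesenchymal genes were higher in MDA-MB-231 than in T47D with shCtrl, where 24.5% of all genes were lower and 22.9% higher. Of 10 measured leukocyte genes, 1 stood above the median of all probe sets (6.34) in each MDA-MB-231 group and 2 in each T47D group, and of 12 fibroblast genes 7 did in MDA-MB-231 with shXBP1, 6 in MDA-MB-231 with shCtrl, 4 in T47D with shXBP1 and 5 in T47D with shCtrl.

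In MDA-MB-231, most measurements of MALAT1 were lower with the XBP1 hairpin, by 1.46-fold in the brightest probe set and by up to 2.66-fold. Of its 12 probe sets, 8 fell, 4 did not pass and none rose, whereas 8.03% of all single-symbol probe sets fell in this comparison and 15.8% changed in either direction. The 12 changes ran from -1.41 to 0.06 with a median of -0.73, against a median of 0.01 over all probe sets. In 11 of the 12, both shXBP1 arrays lay under both shCtrl arrays, which held for 26.3% of all probe sets. The 12 probe sets measure 1 gene in the same 8 samples and are not independent of each other. In these bulk samples, fewer cells with the RNA and less RNA per cell cannot be told apart. The labels do not distinguish between XBP1 hairpins, so loss of XBP1 and other effects of the hairpin cannot be told apart either.

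The brightest MALAT1 probe set, 224567_x_at, read 13.68 and 14.07 in MDA-MB-231 with shXBP1 and 14.38 and 14.47 in MDA-MB-231 with shCtrl. The shXBP1 arrays were lower and did not overlap the controls, and the change was -0.55 (SE 0.13, adjusted p = 0.0284). Its call was the least firm of the 8, since it was lost on leaving out any 1 of 5 arrays: MDA-MB-231 shXBP1 replicate 1, either MDA-MB-231 shCtrl array, or either T47D shXBP1 array.

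The largest change was in 224568_x_at, which read 11.36 and 12.07 in MDA-MB-231 with shXBP1 against 13.17 and 13.08 with shCtrl. It fell by 1.41 (SE 0.20, adjusted p = 0.00282), the 2.66-fold change named above. Next to it, 223940_x_at read 11.82 and 12.50 with shXBP1 and 13.49 and 13.47 with shCtrl, and fell by 1.32 (SE 0.19, adjusted p = 0.00312). In both, the shXBP1 arrays lay well under the controls, and they also lay farther apart from each other (SD 0.50 and 0.49) than the controls did (SD 0.07 and 0.01). The bright probe set 1558678_s_at showed the same order, at 13.11 and 13.47 with shXBP1 against 14.19 and 14.18 with shCtrl, and fell by 0.90 (SE 0.13, adjusted p = 0.00268).

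The remaining 4 MALAT1 probe sets that fell did so by similar amounts. In MDA-MB-231, 224559_at read 8.82 and 9.08 with shXBP1 against 9.74 and 9.63 with shCtrl (-0.73, SE 0.12, adjusted p = 0.00545). Likewise 223578_x_at read 8.60 and 8.72 with shXBP1 against 9.41 and 9.36 with shCtrl (-0.73, SE 0.11, adjusted p = 0.00311). No array of one group reached the other in either. Lower in brightness, 227510_x_at read 7.11 and 7.80 with shXBP1 and 8.25 and 8.38 with shCtrl (-0.86, SE 0.20, adjusted p = 0.0218). The readings of 231735_s_at were 9.90 and 10.41 with shXBP1 and 10.90 and 10.88 with shCtrl (-0.74, SE 0.17, adjusted p = 0.0227). These last 2 calls depended on single arrays: both were lost without either MDA-MB-231 shCtrl array, and that of 231735_s_at also without MDA-MB-231 shXBP1 replicate 1.

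The 4 probe sets that did not pass were not alike. In 3 of them the shXBP1 arrays were again the lower ones: 226675_s_at changed by -0.69 (SE 0.24, adjusted p = 0.0996), 228582_x_at by -0.63 (SE 0.24, adjusted p = 0.117) and 224558_s_at by -0.32 (SE 0.10, adjusted p = 0.069). The fourth, 223577_x_at, was flat, with 8.65 and 8.61 in MDA-MB-231 with shXBP1 and 8.54 and 8.59 with shCtrl, and its change of 0.06 had a 95% interval of -0.18 to 0.30. It was also the one that spanned least over the 8 arrays, 0.36 on the log2 scale, where the others spanned 1.04 to 2.78.

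**Figure D1:**
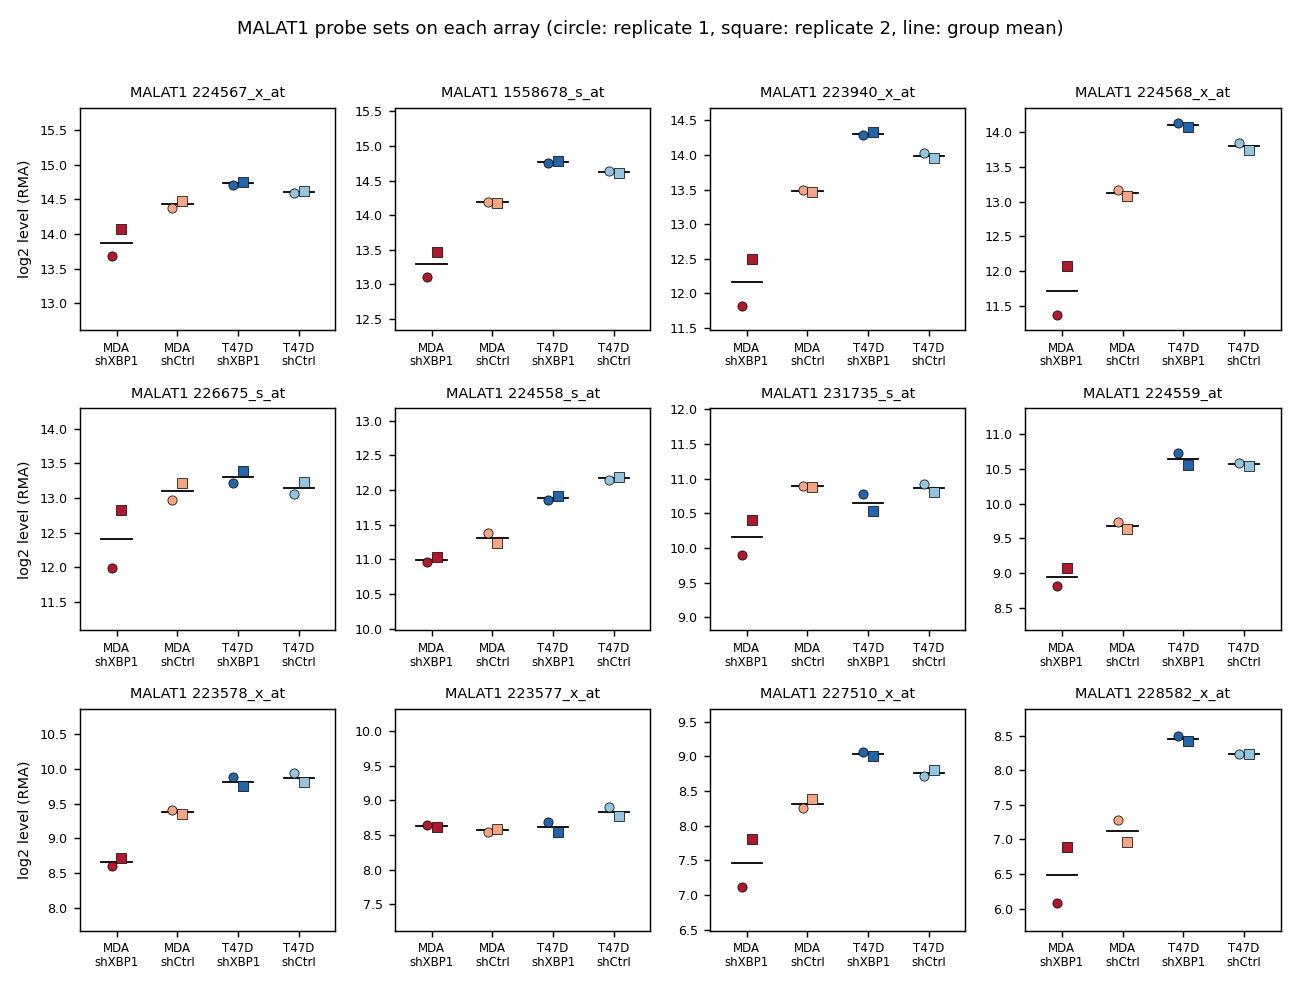
Levels of the 12 MALAT1 probe sets (y axis, log2 RMA value, each panel with its own centre and the same height of scale) in the 4 groups on the x axis; each point is 1 array and each bar the mean of a group's 2 arrays. In all panels but that of 223577_x_at the MDA-MB-231 shXBP1 arrays lie under the MDA-MB-231 shCtrl arrays, and replicate 1 lies under replicate 2.

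The 2 MDA-MB-231 shXBP1 arrays stood apart from each other in MALAT1. MDA-MB-231 shXBP1 replicate 2 read higher than replicate 1 in 11 of the 12 MALAT1 probe sets, by a median of 0.45 and at most 0.84. Over all probe sets those 2 arrays differed by a median of 0.152 in size, and 95% of them by less than 0.523. In the 3 other groups the median MALAT1 difference between replicates was -0.02, -0.06 and -0.03. Without replicate 1 of this group 6 MALAT1 probe sets fell (median -0.50), and without replicate 2 it was 10 (median -1.02). In both cases 11 of the 12 changes were negative. With only the 4 MDA-MB-231 arrays in the fit 5 probe sets fell, and with a variance trend and robust fitting 10 did.

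RNA integrity controls were compared for the same arrays. The ACTB control sets, which read both ends of the actin mRNA, differed (end near the tail minus end near the cap) by 0.89 and 1.10 in MDA-MB-231 with shXBP1 and by 1.30 and 1.21 in MDA-MB-231 with shCtrl. The GAPDH controls differed by 0.30 and 0.32 with shXBP1 and by 0.27 and 0.33 with shCtrl. The actin values moved with the groups and the GAPDH values overlapped, and the part of either in the MALAT1 readings was not tested.

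In T47D, MALAT1 showed no change that passed. None of the 12 probe sets was called by limma, 1 had an unadjusted p under 0.05, and the background in this comparison was 24.3% of all single-symbol probe sets. With a variance trend and robust fitting, or a minimum mean level at the median or the 25th percentile, 224558_s_at passed at -0.29. Without either MDA-MB-231 shXBP1 array, 223940_x_at passed in the other direction at 0.32 (adjusted p = 0.0407). Changes ran from -0.29 to 0.32 with a median of 0.13, 8 above 0 and 4 below. The brightest probe set read 14.71 and 14.75 in T47D with shXBP1 and 14.59 and 14.62 in T47D with shCtrl, a difference of 0.13 with a 95% interval of -0.18 to 0.43. For 224568_x_at, with its large fall in the other line, the readings were 14.14 and 14.08 with shXBP1 and 13.85 and 13.75 with shCtrl, 0.31 apart with an interval of -0.16 to 0.77.

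The hairpin's effect on MALAT1 differed between the lines when tested directly. The effect in MDA-MB-231 minus that in T47D passed for 7 of the 12 probe sets, all negative, where 21.1% of all single-symbol probe sets passed this test and 11.5% passed with a negative sign. Values of the 12 ran from -1.72 to 0.29 with a median of -0.83. The 2 largest were 224568_x_at at -1.72 (SE 0.29, adjusted p = 0.0042) and 223940_x_at at -1.64 (SE 0.28, adjusted p = 0.00424). Leaving out 1 array at a time left 3 to 10 MALAT1 probe sets past this test, with the fewest without T47D shXBP1 replicate 1 and the most without MDA-MB-231 shXBP1 replicate 2. It also left 4 without T47D shCtrl replicate 2.

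**Figure D2:**
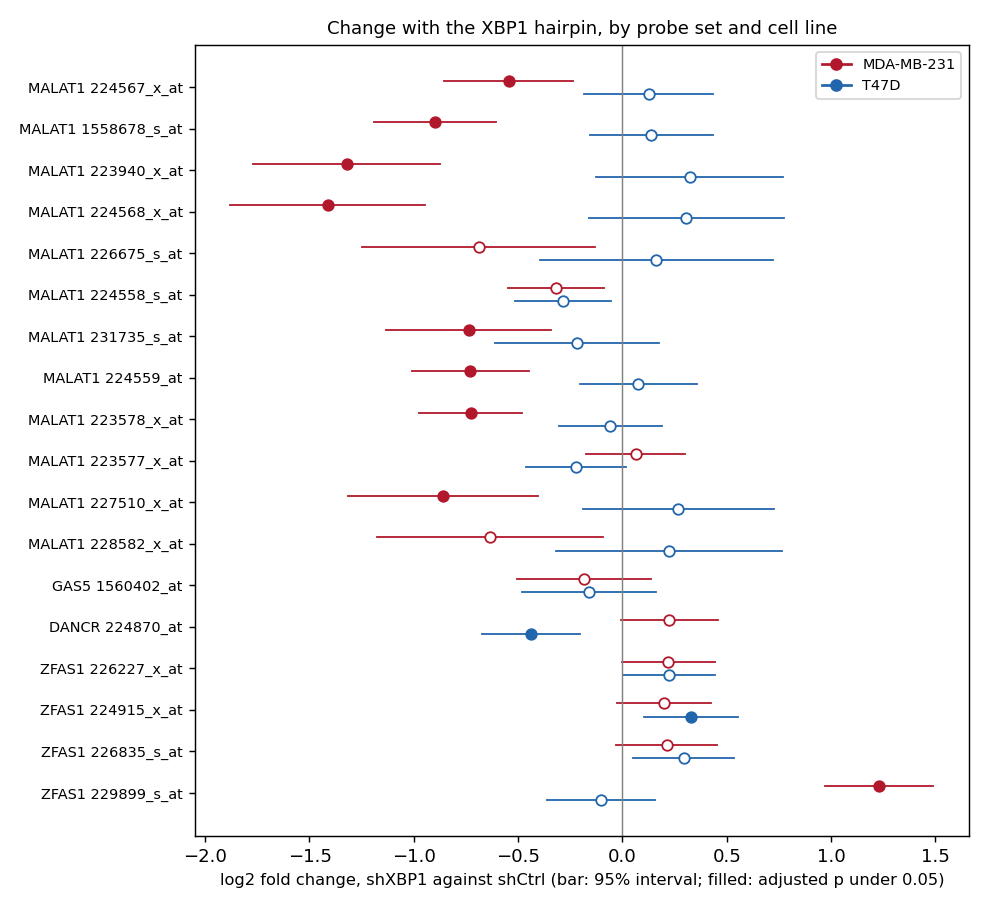
Log2 fold change of shXBP1 against shCtrl (x axis) for each of the 18 probe sets (rows), in MDA-MB-231 (red) and T47D (blue); bars are 95% intervals from the limma fit and filled points have an adjusted p under 0.05. The MALAT1 points of MDA-MB-231 lie left of 0 except for 223577_x_at, those of T47D lie between -0.29 and 0.32, and ZFAS1 229899_s_at stands apart at 1.23 in MDA-MB-231.

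MALAT1 was also lower in MDA-MB-231 than in T47D, more so with shXBP1. With shXBP1, 11 of 12 probe sets were lower in MDA-MB-231 (median -1.32, down to -2.40), where 46% of all single-symbol probe sets differed between the lines and 23% were lower. The call of 231735_s_at (-0.50, adjusted p = 0.0429) was lost on leaving out any array but MDA-MB-231 shXBP1 replicate 2, and that of 226675_s_at (-0.90) without T47D shXBP1 replicate 2, which left 9 of 12. With shCtrl 6 of 12 were lower (median -0.47, down to -1.11), where 44.4% of all differed and 21.6% were lower. By its brightest probe set the order of the groups was T47D shXBP1 (14.73), T47D shCtrl (14.61), MDA-MB-231 shCtrl (14.42) and MDA-MB-231 shXBP1 (13.88). Of the neighbours in that order only the last pair differed beyond the spread, since the lines with shCtrl differed by -0.19 (adjusted p = 0.311). The line difference with shCtrl was larger in other probe sets, at -0.89 (SE 0.12, adjusted p = 0.000389) for 224559_at and -0.68 (SE 0.20, adjusted p = 0.0253) for 224568_x_at. Both 224568_x_at and 1558678_s_at (-0.44) lost this call with any 1 of the 4 shCtrl arrays left out.

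How far the probe sets of MALAT1 follow each other was measured over the 8 arrays. Of the 66 pairs, 34 correlated at 0.9 or more, the median was 0.92 and the lowest 0.02. Against the brightest probe set, 10 of the others lay between 0.79 and 0.99, and 223577_x_at was at 0.19. Such correlations hold the differences between lines and hairpins and are a description. Probe sets whose name ends in _x_at contain probes that also match other transcripts, and 7 of the 12 are of this kind. Of these 5 fell in MDA-MB-231, as did 2 of the 4 ending in _s_at and the single one ending in _at. The part of shared probes in these values was not tested.

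ZFAS1 was lower in MDA-MB-231 than in T47D. Its leading probe set, 226227_x_at, read 13.77 and 13.66 in MDA-MB-231 with shXBP1, 13.47 and 13.52 in MDA-MB-231 with shCtrl, 14.67 and 14.65 in T47D with shXBP1 and 14.45 and 14.43 in T47D with shCtrl. Every MDA-MB-231 array lay under every T47D array. The lines differed by -0.94 with shCtrl (SE 0.10, adjusted p = 6.45e-05) and by -0.95 with shXBP1 (SE 0.10, adjusted p = 5.77e-05). With shCtrl all 4 ZFAS1 probe sets were lower in MDA-MB-231 (-1.24 to -0.91), where 21.6% of all single-symbol probe sets were lower and 44.4% differed. With shXBP1 3 of the 4 were lower (-1.04 to -0.95), where 23% of all were lower and 46% differed, while 229899_s_at differed by 0.09 (adjusted p = 0.551). The 4 probe sets measure 1 gene and are not independent of each other.

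With the hairpin, ZFAS1 read a little higher in both lines by its 3 bright probe sets, and only 1 of these 6 changes passed. In T47D, 224915_x_at read 14.37 and 14.41 with shXBP1 against 14.04 and 14.08 with shCtrl and rose by 0.33 (SE 0.10, adjusted p = 0.0426), in a comparison where 13.2% of all single-symbol probe sets rose. The other 2 bright probe sets differed there by 0.22 (226227_x_at, adjusted p = 0.142) and 0.29 (226835_s_at, adjusted p = 0.0821). In MDA-MB-231 the same 3 differed by 0.20 to 0.22 (adjusted p = 0.177 to 0.231). The shXBP1 arrays lay above the shCtrl arrays in all 6 cases, a pattern that 30.3% of all probe sets showed in T47D and 27% in MDA-MB-231. The T47D call was lost with any 1 of its own arrays or either MDA-MB-231 shCtrl array left out, with all probe sets tested, and with a replicate block within each line or across all groups (adjusted p up to 0.199). With a variance trend and robust fitting all 6 passed.

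The fourth ZFAS1 probe set disagreed with them. In MDA-MB-231, 229899_s_at read 8.43 and 8.18 with shXBP1 against 7.07 and 7.07 with shCtrl, and rose by 1.23 (SE 0.11, adjusted p = 0.000433), or 2.35-fold, against a background of 7.8% of all single-symbol probe sets that rose. In T47D it read 8.25 and 8.16 with shXBP1 and 8.28 and 8.35 with shCtrl, a difference of -0.10 (adjusted p = 0.593). The MDA-MB-231 shCtrl arrays were thus the low ones, and the other 6 arrays lay between 8.16 and 8.43. The 2 effects differed by 1.34 (SE 0.16, adjusted p = 0.000997), while for the 3 bright probe sets the same difference lay between -0.13 and -0.00 (adjusted p = 0.577 to 0.99). Over the 8 arrays 229899_s_at correlated with the leading probe set at 0.66, and the 2 other bright ones did at 1.00. Averaging the 4 probe sets gave a rise of 0.47 in MDA-MB-231 (adjusted p = 0.00832), a value that mixes the 2 patterns.

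DANCR fell with the XBP1 hairpin in T47D, and not in MDA-MB-231. Its probe set, 224870_at, read 11.27 and 11.30 in T47D with shXBP1 against 11.71 and 11.74 in T47D with shCtrl. The replicates lay within 0.04 of each other, the groups did not overlap, and the change was -0.44 (SE 0.10, adjusted p = 0.0147), or 1.35-fold, in a comparison where 11% of all single-symbol probe sets fell. In MDA-MB-231 it read 10.98 and 10.86 with shXBP1 against 10.63 and 10.76 with shCtrl, higher by 0.22 with an interval of -0.01 to 0.46 (adjusted p = 0.192), and it passed with a variance trend and robust fitting (adjusted p = 0.0321). The effects differed by 0.66 (SE 0.14, adjusted p = 0.0132), where 9.67% of all passed with a positive sign. Leaving out any 1 of the 4 T47D arrays ended the T47D call (adjusted p up to 0.0937), with the change between -0.46 and -0.42, and the difference between the lines was lost without T47D shXBP1 replicate 1 (adjusted p = 0.0568).

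The 4 groups ordered DANCR as T47D shCtrl (11.72), T47D shXBP1 (11.29), MDA-MB-231 shXBP1 (10.92) and MDA-MB-231 shCtrl (10.70). Between the lines the difference was -0.36 with shXBP1 (SE 0.10, adjusted p = 0.0177) and -1.03 with shCtrl (SE 0.10, adjusted p = 5.33e-05), so DANCR was nearer to equal between the lines with shXBP1, and the test of that is the 0.66 above. Of the neighbours in that order, the 2 MDA-MB-231 groups did not differ beyond their spread. The difference of -0.36 lost its call when replicate 2 of MDA-MB-231 with shXBP1 or either T47D shXBP1 array was left out, with adjusted p-values up to 0.0936.

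GAS5, by its 1 usable probe set, passed the test in none of the 5 comparisons. The readings of 1560402_at were 6.64 and 6.94 in MDA-MB-231 with shXBP1, 6.96 and 6.99 in MDA-MB-231 with shCtrl, 6.81 and 6.55 in T47D with shXBP1 and 6.76 and 6.92 in T47D with shCtrl. All 8 lay within 0.44 on the log2 scale. The probe set is dim: its mean stood at percentile 57.2 of all single-symbol probe sets, whose median was 6.34. It therefore cannot show whether GAS5 RNA as a whole stayed unchanged. The changes with the hairpin were -0.18 in MDA-MB-231 (interval -0.51 to 0.14, adjusted p = 0.45) and -0.16 in T47D (interval -0.48 to 0.16, adjusted p = 0.496). A change of -0.44, as for DANCR in T47D, lies inside both intervals.

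**Figure D3:**
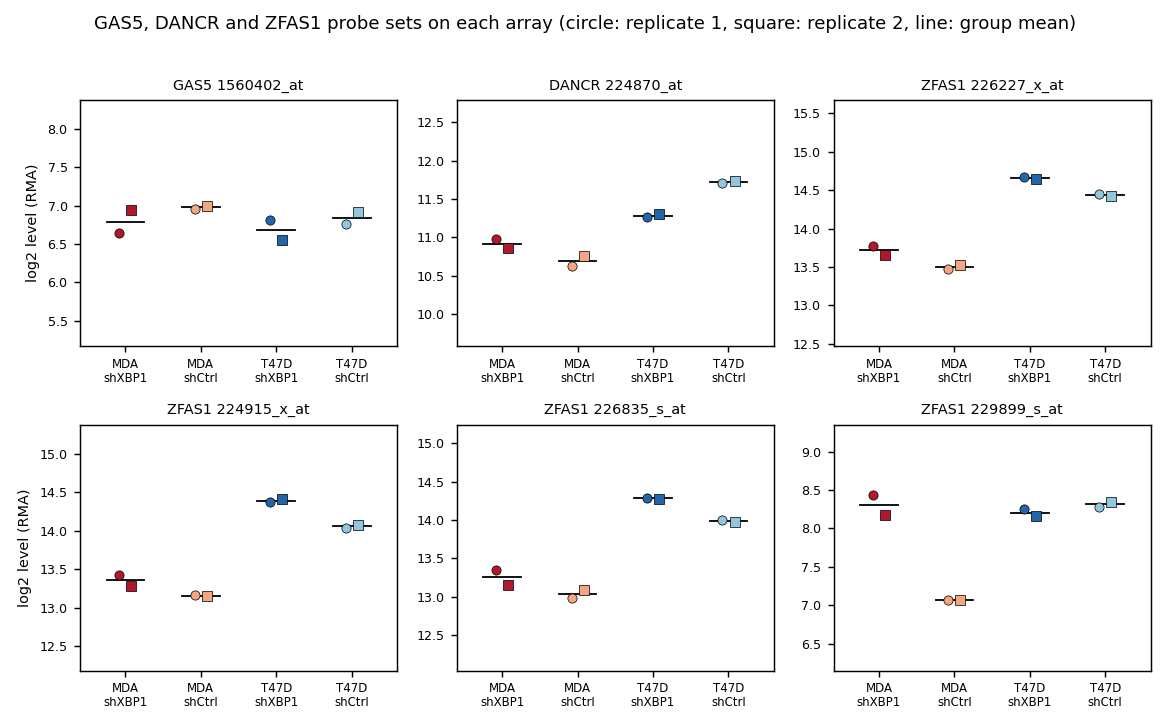
Levels of the GAS5, DANCR and ZFAS1 probe sets (y axis, log2 RMA value, each panel with its own centre and the same height of scale) in the 4 groups on the x axis; points are arrays and bars are means of 2 arrays. The 3 bright ZFAS1 probe sets and DANCR are lower in both MDA-MB-231 groups, and ZFAS1 229899_s_at is low in MDA-MB-231 shCtrl alone.

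**Figure D4:**
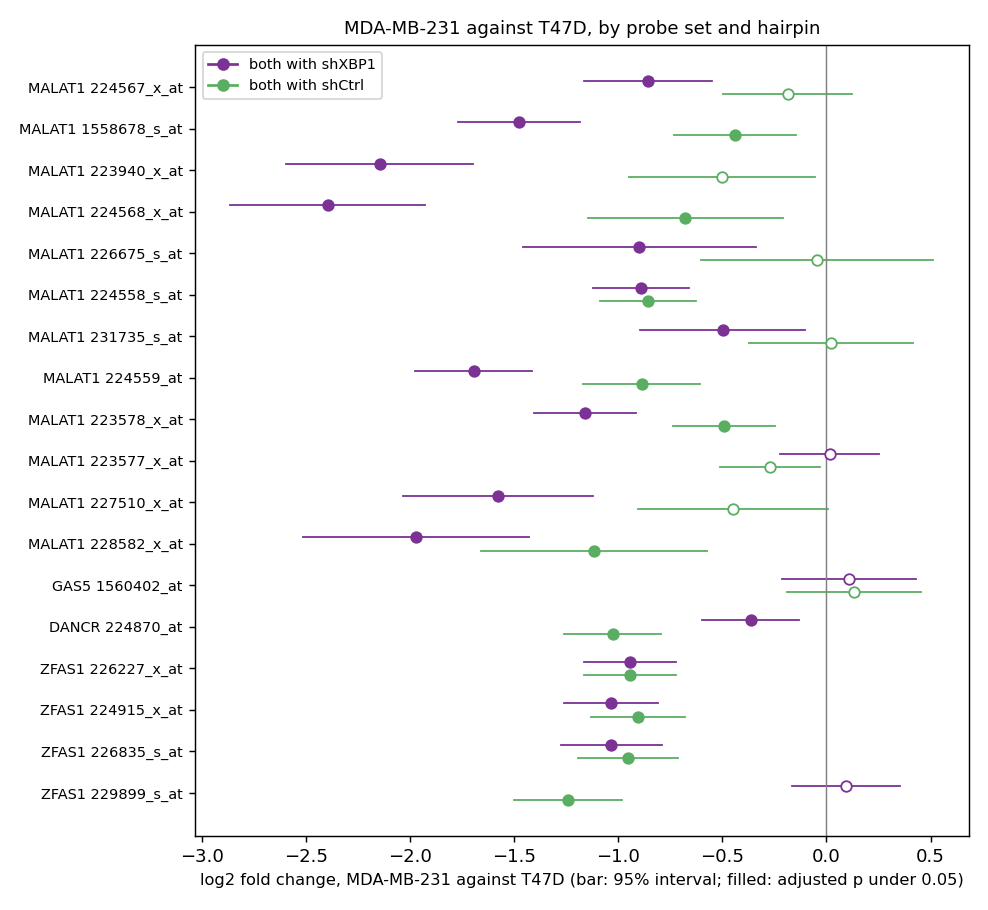
Log2 difference of MDA-MB-231 against T47D (x axis) for each of the 18 probe sets (rows), with shXBP1 and with shCtrl; bars are 95% intervals from the limma fit and filled points have an adjusted p under 0.05. With shXBP1 15 of the 18 are lower in MDA-MB-231 and with shCtrl 11 are, against 23% and 21.6% of all single-symbol probe sets. The 18 belong to 4 genes and 12 of them measure MALAT1, so they are not independent of each other. The MALAT1 points with shXBP1 reach -2.40.

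Over all 18 probe sets, 9 changed with the XBP1 hairpin in MDA-MB-231 (8 lower, all MALAT1, and 1 higher, of ZFAS1). In T47D 2 changed (DANCR lower, 1 of ZFAS1 higher). Probe sets of 1 gene are not independent, and 12 of the 18 measure MALAT1. Among all single-symbol probe sets 15.8% changed in MDA-MB-231 and 24.3% in T47D. The other genes of these pathways were then counted from lists, each gene by its brightest single-symbol probe set. Among all 19775 genes 15.6% changed in MDA-MB-231 (9.59% higher, 5.98% lower) and 26.9% in T47D (14.5% higher, 12.3% lower), and the median changes over all genes were 0.03 and -0.02 in those lines. The lists are described by their counts and medians and were not tested as sets.

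Of 21 other snoRNA-host noncoding RNAs listed, 7 were measured. Of the 7, limma called none in MDA-MB-231 (2 with an unadjusted p under 0.05, median -0.10) and 1 in T47D (median 0.05). That one was SNHG19, which fell by 1.20 in T47D (SE 0.12, adjusted p = 0.000248) and differed by -0.31 in MDA-MB-231 (adjusted p = 0.121). SNHG17 differed by -0.30 in MDA-MB-231 (adjusted p = 0.0766). Protein-coding genes that carry snoRNAs numbered 35 in the list, and 16 were measured. Listed genes of either kind that were not measured had no single-symbol probe set. These counts therefore do not describe snoRNA hosts as a whole. Of the 16, 2 rose in MDA-MB-231 (median 0.02) and none was called in T47D (3 with an unadjusted p under 0.05, median 0.05). The 2 were NCL, the nucleolar protein nucleolin, at 0.45 (SE 0.10, adjusted p = 0.0177), and AP1G1, a clathrin adaptor subunit, at 0.38 (adjusted p = 0.027). In T47D, NCL differed by -0.29 (adjusted p = 0.0746) and the ribosomal protein gene RPL27A by -0.34 (adjusted p = 0.0615).

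Proteins that build snoRNA particles moved both ways in T47D. Of 15 measured, 5 fell and 3 rose in T47D (median -0.16), where 12.3% of all genes fell and 14.5% rose. In MDA-MB-231, where 5.98% of all genes fell and 9.59% rose, 2 of the 15 rose and none fell (median 0.05). The difference between these counts was not tested. In T47D the R2TP assembly factors PIH1D1 (-0.85, SE 0.12, adjusted p = 0.00117) and RUVBL1 (-0.80, SE 0.13) fell, as did NOLC1 (-0.74, SE 0.10), which binds snoRNA particles in the nucleolus. ZNHIT6, an assembly factor of box C/D particles, rose in T47D (0.96, SE 0.10, adjusted p = 0.000343) and in MDA-MB-231 (0.36, SE 0.10, adjusted p = 0.0446). NAF1, an assembly factor of box H/ACA particles, rose by 0.57 in MDA-MB-231 (adjusted p = 0.0389).

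Proteins of the nuclear bodies in which MALAT1 and NEAT1 reside moved both ways. Of 19 splicing proteins of nuclear speckles, 4 fell and 3 rose in MDA-MB-231 (median 0.21), where 5.98% of all genes fell and 9.59% rose. In T47D 2 fell and 2 rose (median 0.04), against 12.3% and 14.5% of all genes. In MDA-MB-231 the speckle scaffold SRRM2 fell by 1.30 (SE 0.11, adjusted p = 0.000354), and the kinases of splicing factors CLK4 and CLK1 fell by 1.27 (adjusted p = 0.000203) and 1.19 (adjusted p = 0.00409). SRSF6, an SR splicing factor, rose there by 1.42 (SE 0.13, adjusted p = 0.000405). In T47D those called were LUC7L3 at -0.70, SRRM2 at -0.46, TRA2A at 0.56 and U2AF1 at 0.55 (adjusted p = 0.00365 to 0.0313).

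Of 16 paraspeckle proteins, 4 rose and 1 fell in MDA-MB-231 (median 0.15), where 9.59% of all genes rose and 5.98% fell. In T47D 4 rose and 2 fell (median 0.01), against 14.5% and 12.3% of all genes. The RNA-binding proteins HNRNPUL1 (1.05, SE 0.10, adjusted p = 0.000466), TAF15 (0.88) and RBM14 (0.73) rose in MDA-MB-231, where MATR3, the nuclear matrix protein matrin, fell by 0.82 (SE 0.21, adjusted p = 0.0304). MATR3 rose by 1.31 in T47D (SE 0.21, adjusted p = 0.00234), and SMARCA4, a chromatin remodelling ATPase, by 0.55. The MATR3 probe set was dim in T47D, with means of 6.34 with shCtrl and 7.65 with shXBP1, where the median of all single-symbol probe sets was 6.34. In MDA-MB-231 its means were 9.03 with shCtrl and 8.20 with shXBP1. This probe set alone cannot show whether MATR3 RNA as a whole moved in opposite directions in the lines. The core paraspeckle protein PSPC1 (-0.43) and the cleavage factor CPSF6 (-0.40) fell in T47D (adjusted p = 0.0139 and 0.0158).

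Other long or structural noncoding RNAs changed both ways. Of 17 measured, 3 rose and 2 fell in MDA-MB-231 (median -0.01), where 9.59% of all genes rose and 5.98% fell. In T47D 3 rose and 2 fell (median -0.07), which is near the shares of all genes (14.5% and 12.3%). HCG18 fell by 0.54 in MDA-MB-231 (adjusted p = 0.0124) and rose by 0.51 in T47D (adjusted p = 0.0101). HOTAIR, which lies in the HOXC cluster, rose by 0.75 in MDA-MB-231 (adjusted p = 0.0179), as did RPPH1, the RNA of ribonuclease P, the enzyme that cuts the end of MALAT1, by 0.70 (SE 0.16, adjusted p = 0.0235). FTX fell by 1.22 (adjusted p = 0.000463) and TUG1 by 0.50 (adjusted p = 0.0228) in T47D.

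Nonsense-mediated decay, which limits GAS5 and other snoRNA hosts, had 14 measured factors. In MDA-MB-231 3 of them rose and none fell (median 0.08), where 9.59% of all genes rose and 5.98% fell. In T47D 4 rose and 2 fell (median 0.10), against 14.5% and 12.3% of all genes. The cap-binding protein gene NCBP1 rose by 0.72 in MDA-MB-231 (SE 0.10, adjusted p = 0.00275) and by 0.67 in T47D (adjusted p = 0.00206), and the core factor UPF2 by 0.52 (adjusted p = 0.0142) and 0.65 (adjusted p = 0.00309) in the same lines. SMG8 rose by 0.49 in MDA-MB-231. In T47D the decapping enzyme DCP2 rose by 0.66, and EIF4A3, of the exon junction complex, fell by 0.54 (adjusted p = 0.00523). Of 10 imprinted genes of the H19 network, 1 fell in MDA-MB-231 (median 0.07) and 2 in T47D (median -0.10). Of all genes, 5.98% fell in MDA-MB-231 and 12.3% in T47D. IGF2R, the clearance receptor of IGF2, fell by 0.51 in MDA-MB-231 (adjusted p = 0.022) and by 0.66 in T47D (adjusted p = 0.00427), and the cell cycle inhibitor CDKN1C fell by 0.63 in T47D.

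The genes whose levels followed the members most closely over the 8 arrays were taken by Pearson correlation among 11610 other genes with levels at or above the median. For MALAT1 these were USP22 (r = 0.993), JARID2 (0.989) and CPEB4 (0.984), and 229 genes reached 0.9. In MDA-MB-231 with shXBP1 CPEB4 read lower by 0.84, JARID2 by 0.53 and USP22 by 0.48, and none was called in T47D. These 3 were chosen for following MALAT1 over the same 8 arrays, so this pattern comes with the choice and is no separate result. ZFAS1 was followed most closely by RNF144B (0.999), HSPB1 and RHBDF1 (both 0.998), with 2077 genes at 0.9 or more, and DANCR by ANXA6 (0.998), RBM25 and TRAPPC2L (both 0.997), with 1001. The points share 4 groups of 2 arrays, so a gene that differs between the lines in the same way correlates highly, and these values are a description.

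The nearest protein-coding genes with a usable probe set on each side were read as well, chosen after the members' values had been seen. ZNFX1, which ZFAS1 adjoins, rose by 1.38 in MDA-MB-231 (SE 0.17, adjusted p = 0.00146) and by 0.91 in T47D (SE 0.17, adjusted p = 0.00561), and was lower in MDA-MB-231 than in T47D with shCtrl (-1.57). PTGIS, on the other side, was called in neither knockdown comparison. Beside MALAT1, FRMD8 fell in MDA-MB-231 (-0.55, SE 0.13, adjusted p = 0.0262) and in T47D (-0.91, SE 0.13, adjusted p = 0.00155), and LTBP3 was not called (-0.16 in MDA-MB-231, adjusted p = 0.522, and 0.42 in T47D, adjusted p = 0.0664). Beside DANCR, USP46 fell by 0.95 in MDA-MB-231 (adjusted p = 0.0165) and differed by 0.18 in T47D (adjusted p = 0.621).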

How the data were processed

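RNA of 8 samples was read on 1-colour Affymetrix arrays, 1 per sample. The authors deposited log2 expression values per probe set, made with RMA and the affy package, version 1.30.0, per the submitters' processing notes. The set of arrays that RMA normalized jointly is not named in those notes. The log2 values the authors deposited (2.75 to 15.6) were used unchanged. They carry no detection calls or read depth, and the number of arrays limits the precision: the median standard error of a knockdown change was 0.13.

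Probe sets were named through the platform annotation supplied for the array, which lists 42898, of which 1801 have several symbols and were not used; 11721 are unnamed here and 62 are controls. Comparing symbols with RefSeq by gene identifier changed 0 and left 42 identifiers unmatched. Groups and replicate numbers came from the labels, and no replicate pair was identical.

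One limma 3.58.1 model (lmFit, then eBayes, in R 4.3.3) with a mean for each of the 4 groups was fitted to 41091 single-symbol probe sets, without a minimum level or fold (4 residual degrees of freedom, 8.08 after moderation). It compared shXBP1 with shCtrl within each line, the difference of these effects, and the lines with each hairpin. Tests were two-sided and adjusted by Benjamini-Hochberg over all 41091, with calls at 0.05. The smallest p that exact permutation of 2 and 2 arrays allows is 0.333. The fit was tested on simulated data. Promoter windows came from a RefSeq table (GRCh38.p14), and figures were drawn with matplotlib 3.10.9.

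Members, lists and tests were chosen with earlier results of these data known. The naming rule covered all member probe sets, XBP1, up to 4 called genes per list with the largest changes or otherwise up to 2 with the smallest p, and the 3 genes most correlated with each member that spans at least 1 log2 unit; the genes in the text are a part of those. Luminal, mesenchymal, leukocyte and fibroblast markers served to check the lines. Alternatives were the brightest or averaged probe sets per gene, all probe sets tested, minimum levels, quantile normalization again, median centring, trend and robust fitting, the compared arrays alone, replicate blocks, and each array left out. One gene of the list of other noncoding RNAs is not reported here by name.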

Additional observations from a re-analysis of the deposited data

Results flagged for a closer look

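The effect of the XBP1 hairpin differed between MDA-MB-231 and T47D for 9 of the 18 probe sets, by the limma test of the difference itself. Of all single-symbol probe sets 21.1% passed. The 18 belong to 4 genes and 12 of them measure MALAT1, so they are not independent of each other. For MALAT1 the difference (MDA-MB-231 effect minus T47D effect, log2) was -1.72 for 224568_x_at, with effects of -1.41 in MDA-MB-231 and 0.31 in T47D, and -1.64 for 223940_x_at, with effects of -1.32 and 0.32 in the same lines. It was -1.13 for 227510_x_at, -1.04 for 1558678_s_at, -0.81 for 224559_at and -0.67 for both 224567_x_at and 223578_x_at. In each of these 7 MALAT1 probe sets the MDA-MB-231 arrays were lower with shXBP1, and in T47D the change was not called.

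DANCR differed by 0.66, with effects of 0.22 in MDA-MB-231 and -0.44 in T47D. ZFAS1 229899_s_at differed by 1.34, with effects of 1.23 in MDA-MB-231 and -0.10 in T47D, and was the one of 4 ZFAS1 probe sets to do so. No cause of these differences was tested. MALAT1 224567_x_at was the weakest of the 9, with an adjusted p of 0.039, and lost its call on leaving out any array but MDA-MB-231 shXBP1 replicate 2. The call of 227510_x_at was lost without any 1 T47D array or without MDA-MB-231 shCtrl replicate 2. Leaving out T47D shXBP1 replicate 1 also ended those of 224559_at, 223578_x_at and DANCR, and leaving out T47D shCtrl replicate 2 that of 223578_x_at.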

How the results depend on the processing

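Across 19 alternative settings, 1552 values of member probe sets were recomputed; 1423 kept their direction and side of the threshold, 65 lost a call, 39 gained one and 25 changed sign. MALAT1 fell in MDA-MB-231 in 5 to 10 of its 12 probe sets under every setting that kept them apart. The count of member probe sets called in T47D (2) became 1 with all probe sets tested, 5 with levels at or above the median and 5 with trend and robust fitting; the MDA-MB-231 count (9) became 15 with trend and robust fitting. Differences between replicates 1 and 2 correlated between groups at -0.06 to 0.03, so no large shift was shared by replicate number. These values cannot show whether samples with the same number were handled together. With a replicate block within each line or across all groups the T47D count was 1, and the MDA-MB-231 count 10. Testing only probe sets at or above the median level raised the percentage of features called to 49.1 in T47D, 35.4 in MDA-MB-231, 44.2 for the difference, 71.9 between the lines with shCtrl and 73.3 with shXBP1, and the arrays compared alone lowered that of MDA-MB-231 to 9.32.

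Leaving out 1 array at a time, the members called ranged from 0 to 3 in T47D, 0 being without any 1 T47D array, and from 4 to 12 for the difference, the fewest without T47D shXBP1 replicate 1; the percentage called ranged from 15 to 25 in T47D, 9.52 to 14.0 in MDA-MB-231 and 13.8 to 20.6 for the difference.

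Sign changes touched values near 0 that were never called. The difference of effects for ZFAS1 226227_x_at (-0.00) was 0.28 with averaged probe sets, 0.03 with quantile normalization again, 0.00 with median centring and -0.06 to 0.06 with arrays left out. For GAS5 it was 0.01 with quantile normalization again and -0.18 to 0.13 with arrays left out. The other ranges with arrays left out were -0.10 to 0.04 (MALAT1 224558_s_at) and -0.17 to 0.01 (ZFAS1 226835_s_at) for the difference; -0.01 to 0.16 (MALAT1 224559_at) and -0.12 to 0.01 (MALAT1 223578_x_at) for T47D; -0.17 to 0.08 (MALAT1 226675_s_at) and -0.04 to 0.08 (MALAT1 231735_s_at) between the lines with shCtrl; and -0.06 to 0.09 (MALAT1 223577_x_at), -0.04 to 0.26 (GAS5) and -0.03 to 0.22 (ZFAS1 229899_s_at) between the lines with shXBP1.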

Other observations

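Some neighbours of GAS5 and DANCR were called in 1 line or both, while the dim GAS5 probe set was not called. Among all genes 15.6% changed in MDA-MB-231 and 26.9% in T47D. Beside GAS5, ZBTB37 fell by 0.47 in MDA-MB-231 (SE 0.11, adjusted p = 0.0263) and rose by 0.75 in T47D (SE 0.11, adjusted p = 0.00196), and these effects differed by -1.23 (adjusted p = 0.00152). CENPL, on the other side of GAS5, rose by 0.49 in MDA-MB-231 (adjusted p = 0.021) and differed by 0.03 in T47D (adjusted p = 0.889). ERVMER34-1, beside DANCR, passed in neither knockdown comparison, and its effects differed by -1.11 (adjusted p = 0.0253).

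Between the lines with shCtrl, 10 of 15 snoRNA particle proteins were higher and 1 was lower in MDA-MB-231 (median 0.35), where 22.9% of all genes were higher and the median of all was 0.01. Over the same comparison, where 24.5% of all genes were lower, 4 of 14 nonsense-mediated decay factors were higher and 6 lower (median -0.11). Of 19 speckle proteins 6 were higher and 8 lower (median 0.03).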
